A study of Mus musculus with 4 samples.

Results

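Open chromatin was examined at the genes of 9 proteins that start T cell receptor signalling, Cd3e, Cd3d, Cd3g, Cd247, Lck, Zap70, Lat, Lcp2 and Cd5. All peaks within the mm10 record of each gene and 20 kb on each side were taken from 4 ATAC-seq peak lists and merged where they shared at least 1 base, which gave 123 of the 93679 regions in the whole set. Cd3g, Cd3d and Cd3e lie next to each other on chromosome 9, so the 9 genes form 7 loci. The CD3 genes span chr9:44969572-45009663. Cd247 (chr1:165779952-165871153) and Zap70 (chr1:36761798-36782821) are on chromosome 1, Lck is at chr4:129548344-129573641, Lat at chr7:126363827-126369705, Lcp2 at chr11:34046928-34092281 and Cd5 at chr19:10718107-10739026. ATAC-seq marks open DNA by letting a transposase insert adapters where nucleosomes do not cover it. The cells were naive CD4+ T cells from the spleens of male wild-type C57BL/6 mice of 7 weeks. Every culture ran for 48 h on anti-CD3 at 5 µg/ml and anti-CD28 at 1 µg/ml, and held IL-2 at 10 ng/ml beside TGF-β1 at 5 ng/ml, which favours induced regulatory T cells (iTreg). One condition received PBS (iTreg+PBS, 2 libraries), and IL-4 at 15 ng/ml was added in the other (2 libraries, iTreg+IL-4). Each library came from a pooled sample. The cultures of both conditions received anti-CD3, so every library comes from cells whose receptor had been engaged, and no unstimulated cells serve as a reference.

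The T cell receptor recognises antigen with its α and β chains and signals through the CD3 chains. Cd3e, Cd3d and Cd3g encode the ε, δ and γ chains, and Cd247 encodes the ζ chain. Their cytoplasmic tails carry tyrosine motifs that the kinase Lck phosphorylates. The kinase Zap70 then binds the ζ and CD3 tails and phosphorylates the adaptors Lat and Lcp2 (SLP-76), on which the next enzymes gather. Cd5 is a surface protein that restrains signalling through this receptor.

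The lists held 56645 to 78670 peaks, fewest in iTreg+PBS replicate 2. Of the 7 loci's 123 regions, 107 and 80 were called in replicates 1 and 2 of iTreg+PBS, and 112 and 94 in those of iTreg+IL-4. Read totals are not part of such lists, so depth is unknown, and where no peak was called enrichment only failed to pass the caller's threshold. Each peak carries a −log10 q-value and a pileup height that are not scaled between libraries. Strength was therefore read as a rank within the list, the percent of peaks in the same list with a higher −log10 q, so that 0% is the strongest peak and a lower rank is better. As a check of the cells, the promoters of all 6 T cell markers (Cd4, Cd2, Thy1, Cd28, Tcf7 and Bcl11b) had a peak in every library. Of the genes that mark other cells, Cd8b1 (1 of 2 for CD8 T cells) and Cd14 (1 of 4 for myeloid cells) had a promoter peak in every library, and none of the 4 for B cells or the 2 for NK cells did. Cd79a, Lyz2, Csf1r, Ncr1 and Klrb1c had none in any library. The part of other cells in the values below was not tested.

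The 150 bases before each curated RefSeq start that lay in or beside a peak are printed 5′ to 3′ on the gene's strand, from GRCm38 (mm10). Capitals mark short motifs of factors known in T cells, searched on both strands. They were AGGAAG for ETS factors, TGTGGT for RUNX, AGATAA for the GATA family, CTTTGA for TCF and CANCTG for the E-box. The AP-1 letters TGANTCA and a STAT6-type motif (TTC and GAA 4 bases apart) were also searched. Matches of different motifs may overlap. A match is only a run of letters and does not show that a factor bound there. At Lcp2 only the peak of iTreg+PBS replicate 2 covered the start and reached into the printed bases. The peaks of the other libraries began past the start, and both GATA matches printed for Lcp2 lie outside every peak.
Cd3e promoter (chr9:45009612-45009761, reverse strand): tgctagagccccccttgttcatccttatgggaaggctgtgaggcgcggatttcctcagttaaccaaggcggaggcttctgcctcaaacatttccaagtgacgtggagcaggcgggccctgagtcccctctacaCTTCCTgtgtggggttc
Cd3d promoter (chr9:44981636-44981785, forward strand): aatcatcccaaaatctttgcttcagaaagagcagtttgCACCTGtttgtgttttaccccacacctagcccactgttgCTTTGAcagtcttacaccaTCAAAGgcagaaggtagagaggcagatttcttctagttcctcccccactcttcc
Cd3g promoter (chr9:44980432-44980581, reverse strand): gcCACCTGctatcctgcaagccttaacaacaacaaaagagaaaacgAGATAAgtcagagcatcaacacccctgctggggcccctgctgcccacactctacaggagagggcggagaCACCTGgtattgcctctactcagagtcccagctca
Cd247 promoter (chr1:165788531-165788680, forward strand): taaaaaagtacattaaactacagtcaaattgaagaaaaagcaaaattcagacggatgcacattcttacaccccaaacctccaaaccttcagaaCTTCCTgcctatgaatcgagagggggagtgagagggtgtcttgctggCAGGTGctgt
Lck distal promoter (chr4:129573642-129573791, reverse strand): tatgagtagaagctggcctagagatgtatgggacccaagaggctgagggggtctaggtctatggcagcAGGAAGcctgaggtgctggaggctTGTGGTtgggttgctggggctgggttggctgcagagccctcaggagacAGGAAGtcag
Lck proximal promoter (chr4:129558373-129558522, reverse strand): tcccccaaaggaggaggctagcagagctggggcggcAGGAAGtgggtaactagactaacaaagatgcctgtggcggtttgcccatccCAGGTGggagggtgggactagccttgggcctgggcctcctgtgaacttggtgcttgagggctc
Zap70 first promoter (chr1:36761648-36761797, forward strand): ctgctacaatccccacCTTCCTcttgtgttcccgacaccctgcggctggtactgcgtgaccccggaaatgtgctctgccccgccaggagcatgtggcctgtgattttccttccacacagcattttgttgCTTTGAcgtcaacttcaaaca
Zap70 second promoter (chr1:36766784-36766933, forward strand): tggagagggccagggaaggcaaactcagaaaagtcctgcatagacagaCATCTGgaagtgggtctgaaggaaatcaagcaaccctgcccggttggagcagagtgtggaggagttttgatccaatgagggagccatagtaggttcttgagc
Lat promoter (chr7:126369569-126369718, reverse strand): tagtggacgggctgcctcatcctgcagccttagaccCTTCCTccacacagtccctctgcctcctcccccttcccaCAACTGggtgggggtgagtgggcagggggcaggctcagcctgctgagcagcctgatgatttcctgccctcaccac
Lcp2 promoter (chr11:34046778-34046927, forward strand): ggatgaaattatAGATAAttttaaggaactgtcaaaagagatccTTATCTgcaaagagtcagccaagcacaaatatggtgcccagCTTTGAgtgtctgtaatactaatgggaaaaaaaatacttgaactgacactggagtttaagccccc
Cd5 promoter (chr19:10738975-10739124, reverse strand): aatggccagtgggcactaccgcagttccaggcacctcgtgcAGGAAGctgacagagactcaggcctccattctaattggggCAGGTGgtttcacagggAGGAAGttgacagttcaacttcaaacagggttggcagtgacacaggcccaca

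Windows of 200 bases were centred on the stretch that the best peaks of the libraries share in a region, or on the region where they share none. In those of the 11 member promoter regions called in every library, the ETS letters occurred in 8 (72.7%), against 22.0% of the 12819 shared promoter regions of the genome. The E-box occurred in 7 (63.6%, against 31.4%) and RUNX in 3 (27.3%, against 8.17%). TCF occurred in 2 and GATA in 1 (6.38% and 2.76% in the genome). AP-1 occurred in none of the 11 (3.28% in the genome), and the STAT6-type letters occurred in 2, both upstream of or at Cd3e (2.91% in the genome). These promoter windows had a median GC content of 55.5% against 65.5% for all shared promoter regions, and its part in the shares was not tested. In the 57 shared distal regions the share with ETS was 31.6%, beside 32.0% of all shared distal regions, and with RUNX 24.6%, beside 25.5%. The E-box occurred in 59.6% of them, beside 45.3%. GATA (7.02%, beside 8.78%), TCF (14.0%, beside 16.0%), AP-1 (17.5%, beside 14.9%) and the STAT6-type letters (5.26%, beside 6.13%) were also counted there. The GC content there was 49.5% against 48.5%.

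The promoters of all 9 genes were open in every library. A promoter peak was one that overlapped the 1 kb before or the 0.5 kb after a curated start, and 58.9% of 21000 coding genes had one in all 4 libraries. Of the 13 promoter regions of the members, 11 (84.6%) were called in all 4 libraries, beside 85.3% of promoter regions in the genome. Of their 102 distal regions, 57 (55.9%) were called in all 4, beside 44.4% of distal regions. Over all classes the count was 73 of 123 (59.3%), beside 51.0%. A further 8 regions lay at start sites of other genes inside the windows, Ube4a, Creg1, Hdac1, Spns1, 4930469K13Rik, A430093F15Rik and Mir7058, and 5 of these were called in all 4.

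The strength of the promoters differed between the genes. Lat, the membrane adaptor, ranked at 6.00% and 12.6% in the iTreg+PBS libraries and at 6.88% and 9.48% in the iTreg+IL-4 libraries. The promoter of Cd3g followed with 7.35%, 13.1%, 7.56% and 9.53%, in the same order of libraries. At the other end, the promoter of Lcp2 ranked at 33.9%, 49.9%, 35.4% and 36.5%. The order of the mean rank was Lat (8.75%), Cd3g (9.38%), Lck (10.2%), Zap70 (12.0%), Cd3e (14.8%), Cd5 (19.5%), Lcp2 (38.9%) and Cd247 (39.1%). The gap to the gene before exceeded the pooled SD over libraries at Cd3e, Cd5 and Lcp2. From Lat to Zap70 the gaps between neighbours in the order stayed within that spread, as did the gap between Lcp2 and Cd247. The median of the members was 13.4%, beside 10.3% for coding promoters with a shared region. Cd3d, which has no promoter region common to the 4 libraries, is left out of this order and described below.

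**Figure D1:**
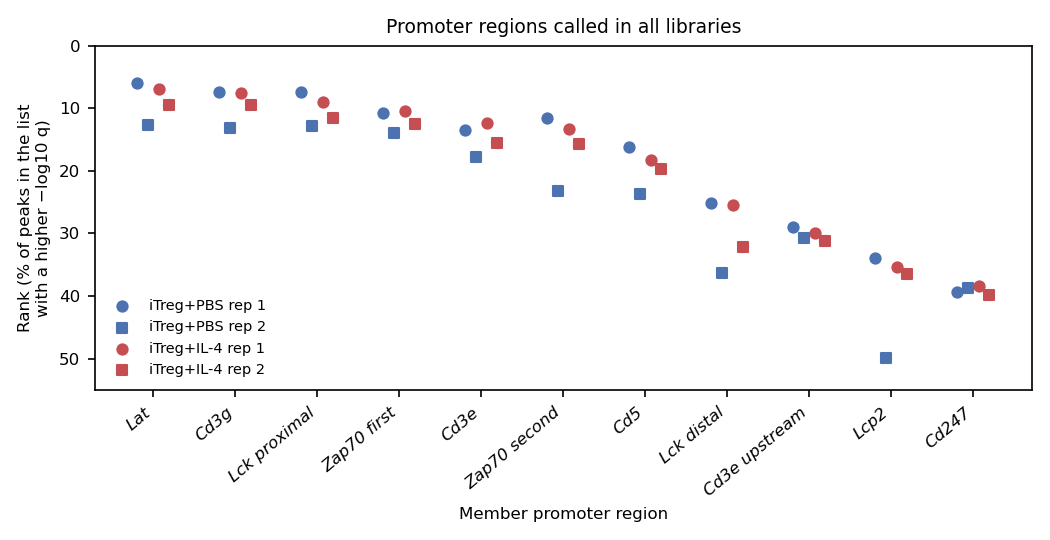
Rank of each member promoter region called in all libraries (vertical axis, percent of peaks in the same list with a higher −log10 q, 0 at the top), 1 point per library, blue for iTreg+PBS and red for iTreg+IL-4, circles for replicate 1 and squares for replicate 2. The Lat promoter sits at 6.00% to 12.6% and the Cd247 promoter at 38.4% to 39.9%, and in each column the iTreg+PBS and iTreg+IL-4 points overlap.

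In no member promoter region called in all libraries did the 2 iTreg+PBS ranks stand apart from the 2 iTreg+IL-4 ranks, beside 20.1% better and 5.74% worse with IL-4 among all shared promoter regions. By height 1 of the 11 stood apart, the promoter of Cd247 (better with IL-4), beside 21.1% better and 4.64% worse among all shared promoter regions. The difference of the means (IL-4 minus PBS) was −1.14 percentage points for Lat, −1.68 for Cd3g, 0.13 for the proximal promoter of Lck, −0.92 for Zap70, −1.75 for Cd3e, −0.88 for Cd5, −5.94 for Lcp2 and 0.10 for Cd247. Each was smaller than the pooled SD of its libraries, 0.84 points for Cd247 and up to 7.99 for Lcp2. In most of these columns iTreg+PBS replicate 2 held the worst rank. Over all 47767 regions called in every library the median difference was −2.05 points within the lists. It was 0.03 when each region was ranked only among those 47767, which removes the length of the lists. Each library then holds nearly the same set of ranks, so the mean difference over these regions is fixed by construction. What caused the shift within the lists was not tested. Differences below are to be read against that shift.

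Among the receptor chains, the 3 CD3 genes of chromosome 9 shared a window with 19 regions, 13 of them called in all libraries. The strongest was not at a start site. It lay at the 3′ end of Cd3d (chr9:44985621-44987343, its centre in exon 5) and ranked at 2.94% and 6.29% in iTreg+PBS and at 3.38% and 4.98% in iTreg+IL-4. Its −log10 q reached 520, 195, 426 and 334 in these libraries, and its height 683, 266, 589 and 464. It was the best ranked distal region of any member by mean rank, and the groups overlapped. Inside it, the stretch chr9:44986675-44986701 holds the RUNX letters once on each strand within 27 bases of the last exon.
Cd3d 3′ RUNX pair (chr9:44986675-44986701, forward strand): tACCACAgcccaaagcaggcTGTGGTg

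The start site of Cd3d was covered by a region called in 3 libraries (chr9:44981529-44982050), ranked at 53.4% and 48.9% in iTreg+PBS and at 46.3% in replicate 1 of iTreg+IL-4. No peak of replicate 2 of iTreg+IL-4 covered the start. A second region between Cd3g and Cd3d (chr9:44981079-44981501) had a peak at 80.1% and 90.0% in the 2 iTreg+IL-4 libraries and none with PBS. Both regions lie within the promoter stretch, so Cd3d had a promoter peak in all libraries, but through different peaks. The upstream peaks were weak by −log10 q, with values of 7.05 and 4.72, whereas by height they ranked at 37.9% and 40.5%. The Cd3e promoter had a second shared region near 1 kb upstream (chr9:45010379-45010789), which ranked at 29.0%, 30.8%, 29.9% and 31.1%. Farther upstream of Cd3e, chr9:45014962-45015221 ranked at 32.7% and 45.9% without IL-4 and at 31.7% and 23.3% with it, so the groups did not overlap. The difference of −11.7 points exceeded the pooled SD of 7.83, and the exact two-sided permutation test gave p = 0.333, the smallest p that 2 against 2 libraries can give. By height the groups overlapped, at 27.7% and 40.7% against 26.2% and 27.9%, and the difference was −7.13 points. Downstream of Cd3g, chr9:44966864-44967079 was the best distal region of that gene, with ranks of 28.7%, 39.5%, 30.0% and 23.1% that overlapped.

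Cd247 had the most regions, 30, and 16 of them were shared by the 4 libraries. Its promoter (chr1:165788592-165788891) ranked by −log10 q at 39.4%, 38.6%, 38.4% and 39.9%, and by height at 23.4%, 25.8%, 22.4% and 22.9%. The strong peak of this gene lay in intron 1, its centre 1412 bases past the start (chr1:165789191-165790996), at 4.43% and 9.18% without IL-4 and at 4.66% and 8.25% with it. The intron region outranked the promoter in every library. Its window, centred on the stretch shared by the best peaks of the 4 libraries, is printed because this was the best ranked distal region of the gene.
Cd247 intron 1 (chr1:165789814-165790013, forward strand): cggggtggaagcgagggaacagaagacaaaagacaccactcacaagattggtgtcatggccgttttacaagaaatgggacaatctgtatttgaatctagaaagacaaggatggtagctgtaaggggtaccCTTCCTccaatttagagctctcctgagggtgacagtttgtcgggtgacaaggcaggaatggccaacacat

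A further shared region of Cd247 (chr1:165779881-165781312) covered 3 start sites that RefSeq only predicts, 8085 bases upstream of the curated start by its centre, and ranked at 29.9%, 33.7%, 30.3% and 22.9%. Another stretch of intron 1 (chr1:165801605-165803770) ranked at 10.4% and 15.8% without IL-4 and at 8.86% and 9.48% with it, without overlap of the groups and by a difference of −3.90 points (pooled SD 2.72). A region upstream of the gene (chr1:165775569-165775974) differed in the other direction, with 41.4% and 50.0% without IL-4 and 57.7% and 56.8% with it. That difference was 11.5 points (pooled SD 4.31), beside 18.2 points among the shared regions and 5.03 points by height. Peaks of intron 1 that were weak by −log10 q appeared with IL-4 in both libraries and without it in none, at 96.4% and 88.4% (chr1:165795673-165796246) and at 84.8% and 82.6% (chr1:165808300-165808551). By height the former ranked at 67.1% and 61.7% and the latter at 41.8% and 41.0%.

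**Figure D2:**
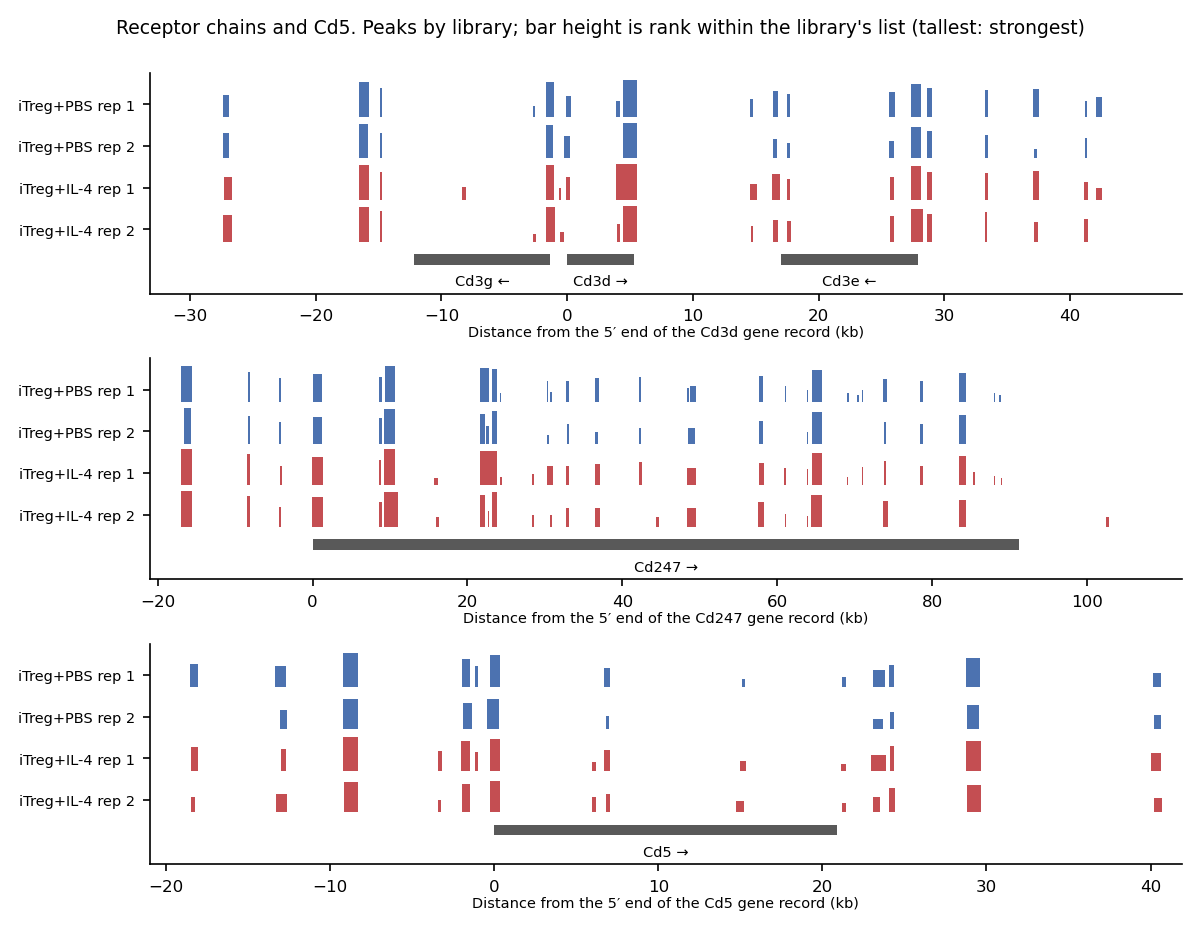
Peaks of the 4 libraries along the CD3 cluster, Cd247 and Cd5 (horizontal axis, distance in kb from the 5′ end of the gene record of Cd3d, Cd247 or Cd5), blue for iTreg+PBS and red for iTreg+IL-4, with bar height giving the rank within the library's list and grey bars the gene records with their direction. The tall bars at the 3′ end of Cd3d rank at 2.94% to 6.29%, and Cd247 carries 30 regions along the gene and its flanks.

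The kinase Lck is read from a proximal and a distal promoter, and both were open. The proximal promoter (chr4:129558243-129558942) ranked at 7.47% and 12.9% without IL-4 and at 9.01% and 11.6% with it. The distal promoter (chr4:129573432-129574005) was weaker in every library, at 25.2%, 36.2%, 25.4% and 32.2%. Apart from the promoter of the neighbour Hdac1 (worst rank 3.45%), the best peak of the locus lay 1770 bases upstream of the distal start (chr4:129575104-129575719), at 4.94%, 11.5%, 6.02% and 8.66%, with heights of 600, 195, 494 and 351. It outranked both promoters in each library, and the groups overlapped.
Lck upstream of the distal promoter (chr4:129575312-129575511, reverse strand): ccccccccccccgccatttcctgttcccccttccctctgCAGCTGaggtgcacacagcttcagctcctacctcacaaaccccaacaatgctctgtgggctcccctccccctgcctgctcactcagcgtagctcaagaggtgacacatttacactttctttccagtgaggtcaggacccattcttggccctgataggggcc

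Of the 9 shared regions of Lck, 2 had worse ranks in both iTreg+IL-4 libraries than in either iTreg+PBS library, and none had better ones. Over all members, 3 regions were worse and 14 better by that count, and in the genome 5.18% were worse and 19.7% better. In intron 1 after the distal start, chr4:129569842-129570391 ranked at 15.4% and 17.9% without IL-4 and at 19.4% and 26.4% with it, a difference of 6.29 points (pooled SD 3.69). Its window, with an ETS and a RUNX match, is printed as the strongest of the 3 regions with worse ranks. The other, chr4:129556515-129556829 in exon 6, ranked at 64.6% and 58.9% without IL-4 and at 67.4% and 83.0% with it, a difference of 13.5 points (pooled SD 8.28). Among the shared regions alone the differences were 11.7 and 14.6 points, whereas by height they were 3.45 and 6.07 points. By height the groups of the first overlapped, at 9.56% and 13.4% against 12.3% and 17.6%, and those of the other did not. Counted among shared regions alone, Lck had 0 better and 3 worse of 9 (14.3% and 12.7% in the genome). The count by height was 0 better and 1 worse (20.4% and 4.42% in the genome).
Lck intron 1 (chr4:129570092-129570291, reverse strand): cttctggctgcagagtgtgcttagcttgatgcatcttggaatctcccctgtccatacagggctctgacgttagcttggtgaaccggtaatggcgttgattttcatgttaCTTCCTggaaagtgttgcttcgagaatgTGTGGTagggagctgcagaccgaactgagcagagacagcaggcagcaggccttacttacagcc

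Zap70 has 4 curated starts, and peaks covered 2 of them. The first promoter (chr1:36760901-36762263) ranked at 10.8%, 14.0%, 10.4% and 12.6%. The second (chr1:36766564-36767592) ranked at 11.6% and 23.3% without IL-4 and at 13.3% and 15.7% with it. No library had a peak over the starts at 36764515 and 36778984. Zap70 had the fewest shared regions for its length, 6 in 61024 bases, and its best distal region (chr1:36744313-36745020, upstream) ranked at 21.6%, 36.2%, 24.5% and 26.2%. A region downstream (chr1:36797266-36798053) ranked at 32.6% and 39.3% without IL-4 and at 28.2% and 25.2% with it, −9.28 points (pooled SD 3.70), without overlap on either rank scale.

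The adaptor genes differed from each other. Lat had a strong promoter and 9 regions, 6 of them shared. Its best distal region lay downstream (chr7:126357545-126358727) at 22.0% and 28.1% without IL-4 and at 19.9% and 20.7% with it, a difference of −4.76 points (pooled SD 3.06) without overlap. By height the groups overlapped there, at 16.1% and 22.8% against 15.4% and 16.6%. Farther downstream, chr7:126345572-126345844 had a peak in the 2 iTreg+PBS libraries, at 53.6% and 61.2%, and none with IL-4, the only member region with that pattern. It amounts to 1 of 123 regions (0.813%), beside 0.699% of regions in the genome. Its window holds an AP-1 match.
Lat downstream, called only without IL-4 (chr7:126345609-126345808, reverse strand): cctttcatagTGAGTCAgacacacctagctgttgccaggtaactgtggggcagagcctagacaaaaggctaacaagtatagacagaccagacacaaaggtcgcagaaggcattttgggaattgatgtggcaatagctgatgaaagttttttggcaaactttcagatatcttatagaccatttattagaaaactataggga

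Lcp2 had a weak promoter but 24 regions, 14 of them shared. Its best distal region lay past the 3′ end (chr11:34111796-34112471) at 8.09%, 17.1%, 5.37% and 10.2%, far ahead of its promoter in every library. Of the 14 member regions with better ranks in both iTreg+IL-4 libraries, 6 were at Lcp2, including the 3 with the largest difference (19.7% of all shared regions were better). Ranked among shared regions alone, Lcp2 had 3 better and 1 worse of 14 (14.3% and 12.7% in the genome), and by height 5 better and 0 worse (20.4% and 4.42% in the genome). The first, just downstream (chr11:34093074-34093620), ranked at 72.0% and 62.5% without IL-4 and at 47.1% and 39.6% with it. The second, in intron 17 (chr11:34086171-34086467), ranked at 78.2% and 74.0% and then at 57.6% and 50.7%. The third, in intron 3 (chr11:34054279-34054816), ranked at 55.1% and 84.3% and then at 48.9% and 49.7%. The differences were −23.9, −21.9 and −20.3 points with pooled SDs of 6.04, 4.06 and 14.6. These peaks were of low strength, with −log10 q values at the first of 11.0 and 10.1 without IL-4 and of 25.8 and 33.2 with it. Among shared regions alone the second and the third still did not overlap (−13.1 and −14.6 points), whereas the first did, at 92.6% and 72.3% against 72.6% and 55.5%. The window of intron 17 holds a GATA and an ETS match.
Lcp2 intron 17 (chr11:34086251-34086450, forward strand): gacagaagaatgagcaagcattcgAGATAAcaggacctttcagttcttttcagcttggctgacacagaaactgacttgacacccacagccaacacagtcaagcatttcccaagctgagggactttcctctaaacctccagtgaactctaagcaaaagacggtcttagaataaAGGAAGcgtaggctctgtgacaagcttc

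**Figure D3:**
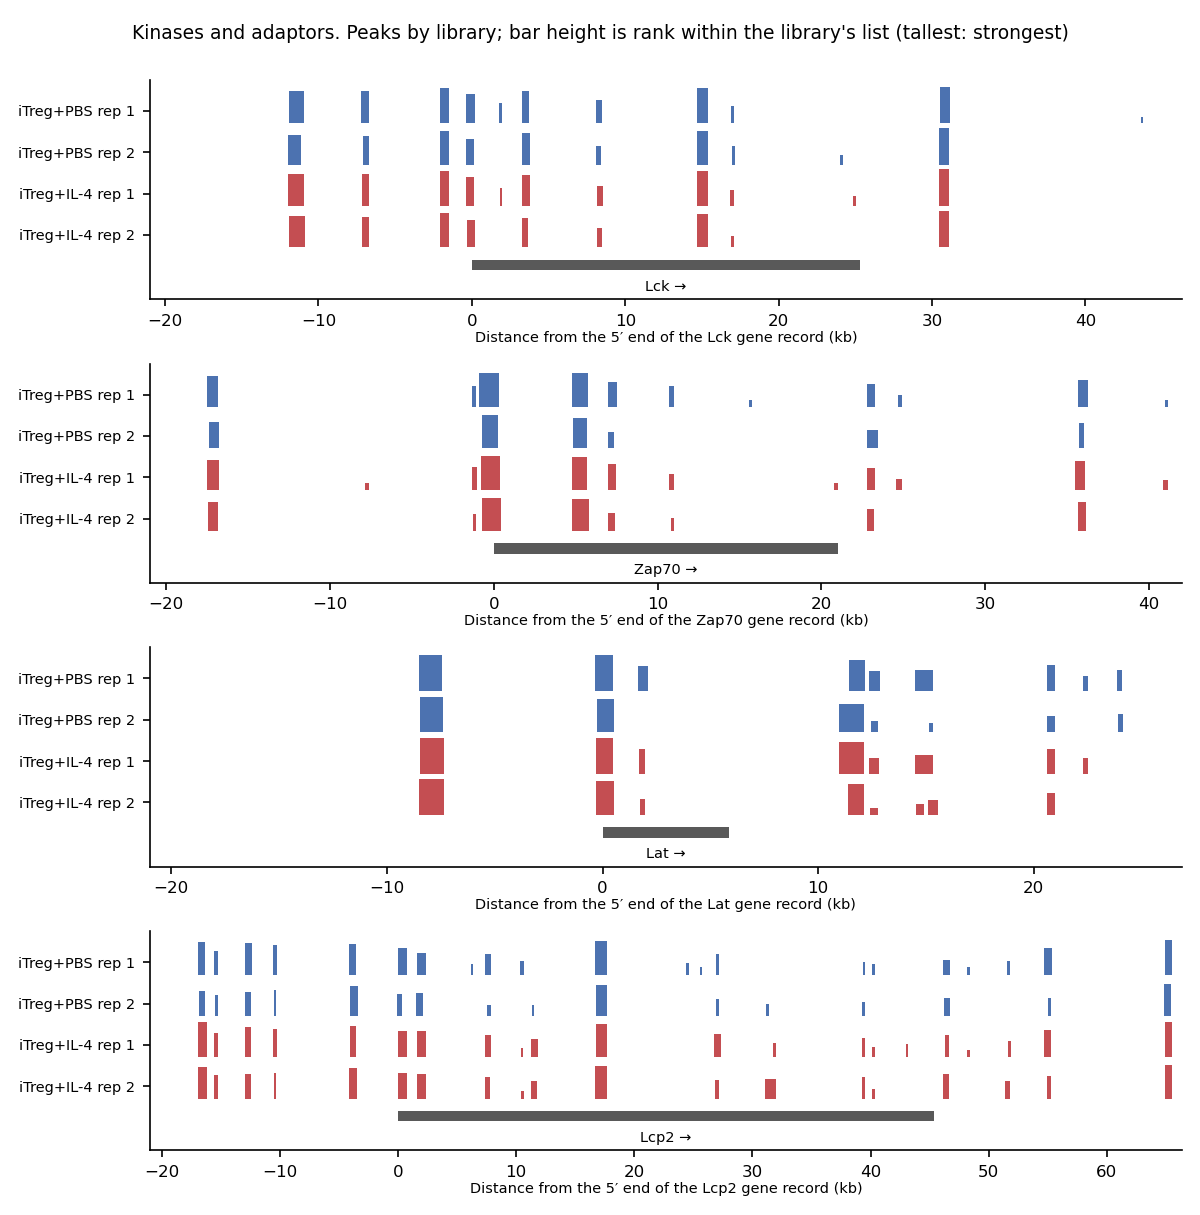
Peaks of the 4 libraries along Lck, Zap70, Lat and Lcp2 (horizontal axis, distance in kb from the 5′ end of each gene record), blue for iTreg+PBS and red for iTreg+IL-4, with bar height giving the rank within the library's list and grey bars the gene records. The tall bars about 2 kb before the 5′ end of Lck are the region at 4.94% to 11.5%, and Lcp2 shows 24 regions on both sides of a low promoter.

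Cd5 had 15 regions, 9 of them shared. Its promoter (chr19:10738675-10739458) ranked at 16.2% and 23.6% without IL-4 and at 18.3% and 19.7% with it. The best distal region, 8820 bases upstream (chr19:10747342-10748246), ranked at 9.21% and 23.8% and at 11.4% and 24.4%, so the libraries numbered 1 ranked better than those numbered 2 in both conditions. The only shared region with separate groups by −log10 q within the lists lay downstream (chr19:10714630-10714944), at 46.7% and 64.4% against 42.5% and 43.1% (−12.7 points, pooled SD 8.84). By height its groups overlapped, at 36.4% and 50.8% against 34.1% and 36.6%. Ranked among shared regions alone, Cd5 had 3 better and 1 worse of 9 (14.3% and 12.7% in the genome). Peaks of Cd5 found in the 2 libraries with IL-4 alone lay in intron 1 (chr19:10732803-10733063, 92.3% and 69.7%) and 3346 bases upstream (chr19:10742203-10742437, 55.9% and 79.6%). The upstream one is printed because its window holds the STAT6-type letters, which 6.13% of shared distal regions in the genome also hold, and a RUNX match.
Cd5 upstream, called only with IL-4 (chr19:10742239-10742437, reverse strand): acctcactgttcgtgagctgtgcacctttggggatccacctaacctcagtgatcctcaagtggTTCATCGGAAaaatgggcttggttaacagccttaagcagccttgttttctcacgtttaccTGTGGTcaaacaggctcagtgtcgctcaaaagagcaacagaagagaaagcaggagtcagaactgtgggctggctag

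Over the 7 loci, 5 regions (4.07%) were called in both libraries with IL-4 alone, beside 2.60% in the genome. They were the 2 of Cd247, the 2 of Cd5 and the one between Cd3g and Cd3d. By −log10 q all were in the weaker part of their lists, from 55.9% to 96.4%, whereas by height they ranked from 31.0% to 67.1%. A larger set of 11 regions (8.94%) lacked only iTreg+PBS replicate 2, beside 9.97% in the genome, and 12 (9.76%) had peaks in the libraries numbered 1 and not in those numbered 2, beside 7.60%. Of the 73 shared regions, 14 (19.2%) had better ranks in both iTreg+IL-4 libraries than in either iTreg+PBS library, beside 19.7% of the genome. The share with worse ranks was 3 (4.11%), beside 5.18%. All 17 were distal. Ranked among shared regions alone, 11 were better (15.1%) and 9 worse (12.3%), beside 14.3% and 12.7%. The split between better and worse thus moved with the ranking, and both splits stood near the background. The median difference of the 73 was −3.42 points within lists and −0.15 among shared regions, beside −2.05 and 0.03 for all.

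These counts turned on single libraries. Without iTreg+PBS replicate 2, 84 regions were shared, with better ranks at 19 and worse ranks at 42, and the median difference was 2.04 points (24.3% better, 36.0% worse and a median of 0.87 in the genome). Without replicate 1 of iTreg+PBS, better ranks numbered 59 and worse ones 3 (70.8% and 9.94% in the genome). In these 2 cases, in that order, 7 and 2 regions were found with PBS alone and 7 and 16 with IL-4 alone. The genome's shares in these cases were 8.21% and 3.25% with PBS alone and 3.41% and 13.6% with IL-4 alone. Without replicate 2 of iTreg+IL-4 there were 33 better and 5 worse (48.4% and 12.5% in the genome), and 12 with IL-4 alone (11.1%). Without replicate 1 of iTreg+IL-4, 20 were better and 12 worse (30.2% and 17.9% in the genome), and 5 were found with PBS alone (3.20%). With any 1 library left out, the median difference of the members had the sign of the genome's median.

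**Figure D4:**
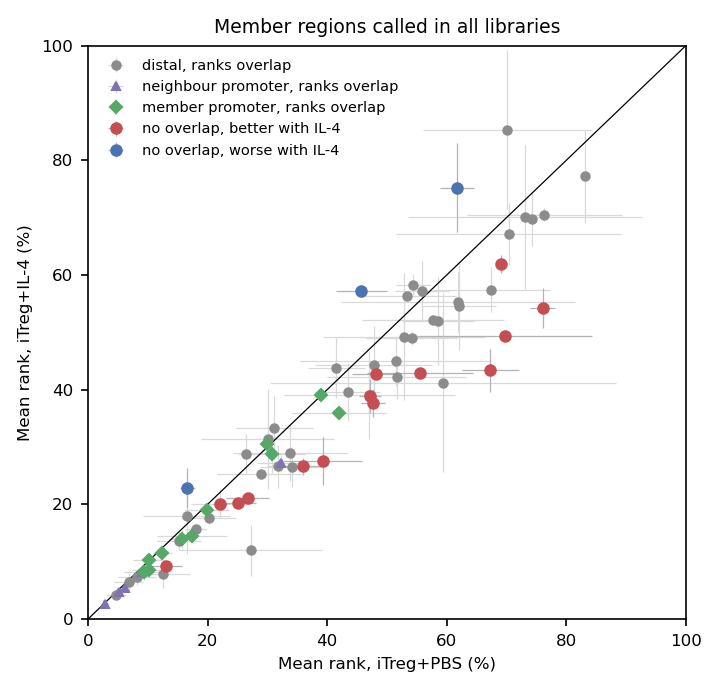
Mean rank in the 2 iTreg+PBS libraries (horizontal axis, percent) against the mean rank in the 2 iTreg+IL-4 libraries (vertical axis, percent) for the 73 member regions called in all libraries, with bars to the 2 replicate values and the line of equal rank. The 14 red points (better with IL-4) and 3 blue points (worse) are distal regions whose groups do not overlap, and the promoters, in green, lie close to the line.

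These windows held more shared regions than those of most genes. Shared regions numbered from 0.983 per 10 kb at Zap70 to 1.96 at Cd3e, beside a median of 0.369 over the windows of 21000 coding genes, and 88.7% to 99.6% of coding genes had fewer. The bases inside peaks were larger on average with IL-4 in each window, which depended on single libraries at Zap70, Lck and Lat. Cd247 had 14388 and 11526 bases without IL-4 and 16266 and 14505 with it. Lcp2 had 9285 and 6637 against 9804 and 9658, and Cd3g 4933 and 4128 against 6241 and 5389. Cd3d, Cd3g, Cd247, Lcp2 and Cd5 had no overlap of the groups (exact two-sided permutation test, p = 0.333, the smallest possible). That is 5 of 9 windows, of which those of Cd3d and Cd3g share bases, beside 16.8% of coding windows. Most coding windows held fewer shared regions than these, and the share among windows of like density was not computed. In the gene record alone Cd3d and Cd247 overlapped (exact permutation p = 0.667 for each), and the difference was −51.5 bases at Cd3e, −15.5 at Lck and −23.0 at Lat. Lck, at 5405 and 4981 against 5546 and 4853, and Lat differed by 6.5 and 53.0 bases (exact permutation p = 1.00). The iTreg+PBS mean includes the shortest list. Without that library the difference was −199 bases at Zap70, −206 at Lck and −528 at Lat, and 90.5 at Cd3e, 386 at Cd5, 446 at Lcp2, 617 at Cd3d, 882 at Cd3g and 998 at Cd247. Without replicate 1 of iTreg+IL-4 it was −4 bases at Zap70, −340 at Lck and −314 at Lat, 206.5 at Cd3e against 867 with all libraries, and 564 to 1697 at the other genes. Without replicate 1 of iTreg+PBS it was 218.5 to 3859.5 bases, and without replicate 2 of iTreg+IL-4 it was 353 to 3309.

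**Figure D5:**
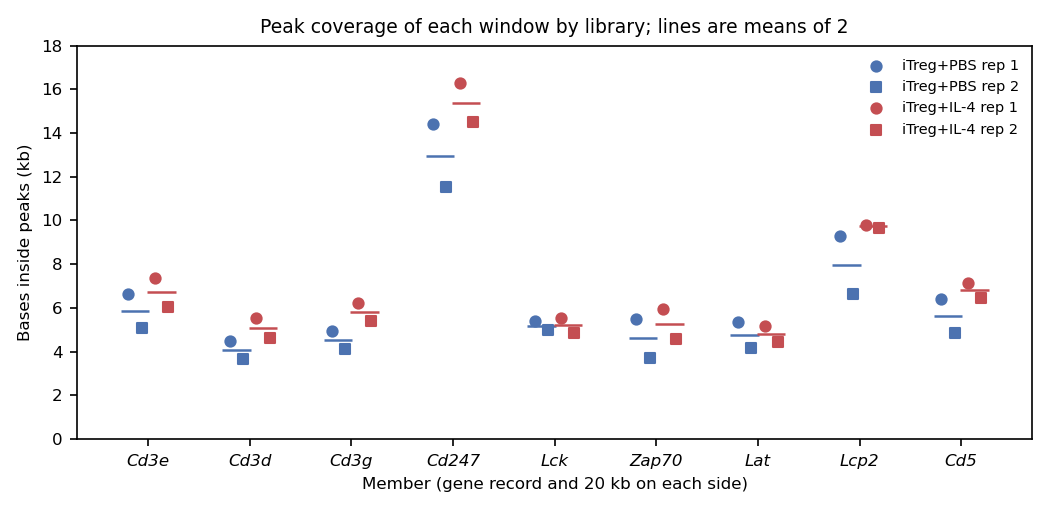
Bases inside peaks (vertical axis, kb) in the record of each member and 20 kb on each side, 1 point per library with lines at the means of 2, blue for iTreg+PBS and red for iTreg+IL-4, circles for replicate 1 and squares for replicate 2. Cd247 spans 11526 to 16266 bases, and the 4 points of Lck lie between 4853 and 5546. The windows of Cd3e, Cd3d and Cd3g share bases.

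Of 38 other genes of the receptor pathway, 37 had a promoter peak in all libraries (97.4%), and Sla, an adaptor that lowers receptor levels, had one only in replicate 1 of iTreg+IL-4. Ranks at 4 promoters were better in both iTreg+IL-4 libraries (10.8% of 37, beside 20.1% of shared promoter regions in the genome) and at 4 worse (10.8%, beside 5.74%). Among the better ones were Trat1, a receptor-associated adaptor (−6.94 points), the adaptor Fyb (−6.32) and Ubash3a, which restrains receptor signalling (−3.15). Worse were Prkcq, which encodes the kinase PKC-θ (13.3), the exchange factor Sos1 (3.42), the kinase Csk, which inhibits Lck (3.11), and the adaptor Grb2 (1.54). Prkcq ranked at 54.1% and 47.8% without IL-4 and at 56.4% and 72.1% with it. Among shared regions alone, Trat1, Fyb and Ubash3a overlapped and so did Grb2, while Prkcq, Sos1 and Csk did not. On that scale 3 promoters of 37 were better (Lax1, Ptprc and Txk) and 4 worse, Vav1 being the fourth. Of all shared regions in the genome, promoter and distal, 14.3% were better and 12.7% worse on it. The median difference of the 37 was −0.88 points, beside −0.65 for coding promoters. Outside the pathway, the coding genes whose promoter ranks in the 4 lists lay nearest to the members' medians were Gphn, Gm46430, Sri and Fzd4, at Euclidean distances of 0.526 to 0.730 points, and 9 genes lay within 1 point.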

How the data were processed

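Per the labels, mouse naive CD4+ T cells were polarized with or without IL-4, and conditions and replicate numbers came from the sample titles. The authors mapped reads to mm10 with Bowtie2 2.2.5, called peaks per library with MACS2 2.1.2 and used bedtools 2.16.2. Correction for the transposase offset and removal of duplicates are not given in the sources used here. The deposited lists give for each peak a −log10 q-value, at least 1.31, and a signal height, both read from the values as there are no column names.

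Merging and ranking were done in Python 3.11.15 (numpy 2.4.6; pandas 2.3.3; scipy 1.17.1), with RefSeq GRCm38 sequence from pysam 0.24.0 and samtools 1.23.1, and plots from matplotlib 3.10.9. The strongest peak of a library in a region gave its rank. The pooled SD is over the libraries of each condition. The replicates are described as biologically independent, and exact two-sided permutation p-values rest on 2 per condition. Counting was tested on simulated lists.

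Members and lists were chosen with earlier results of these data known. Regions given in full were each member's promoters and best distal region, every region found with one condition alone, and up to 3 distal regions per direction with the largest difference among those without overlap. Other regions named were chosen after their values were seen. Pathway genes were named where ranks did not overlap. Some genes of these lists are not reported here. Alternatives used shorter or equal lists, reciprocal overlap, other flanks, promoter widths and start sites, other ranks, the gene record alone, each library left out, and the replicate number as a block.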

Additional observations from a re-analysis of the deposited data

How the results depend on the processing

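With the upper 50% of each list, 44 of 66 member regions were called in every library and 2 only with IL-4 (60.5% and 2.14% in the genome), and ranks without overlap were better at 8 and worse at 1 (19.7% and 4.17%). With lists cut to the equal length of 56645 peaks, 2 were called only with IL-4 (1.92% in the genome). Ranks without overlap were then better at 10 and worse at 8 (14.0% and 12.5% in the genome), and the median difference was 0.02 points (0.03 in the genome). Ranking among shared regions gave 11 better and 9 worse (14.3% and 12.7% in the genome). A flank of 10 kb left 0 regions called only without IL-4. In the gene record alone the difference in bases was 155.5 at Cd3d and 144.5 at Cd3g, and turned in sign at Cd3e (−51.5), Lck (−15.5) and Lat (−23.0). Leaving out 1 library gave 7 to 16 regions only with IL-4, 1 to 7 only without it, 19 to 59 better, 3 to 42 worse and a median difference of −7.33 to 2.04 points, whose sign turned without iTreg+PBS replicate 2. With the replicate number as a replicate block, 31 regions were better and 10 worse (43.4% and 12.3% in the genome). Deviations of same-numbered libraries correlated over 47767 regions (r = 0.499, across regions), but with 2 numbers this does not pair the samples. The block left the median at −3.42 points by construction. All 9 members had a promoter peak in all libraries with any 1 library left out, with the wider promoter and with GENCODE start sites (an alternative chosen after seeing the data), and 8 did with the upper 50% of each list, with lists of equal length and with 0.2 kb on each side of the start. The cause of these changes was not tested. Unknown depth limits every statement on a missing peak.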
